A study of Mus musculus with 27 samples.

Results

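The genes of retinoic acid synthesis, clearance, binding and reception were examined in the RNA-seq libraries of Gas41 knockdown and differentiating mouse embryonic stem cells (mESCs). The set holds 9 genes, Aldh1a2, Aldh1a3, Cyp26a1, Cyp26b1, Crabp1, Crabp2, Rara, Rarb and Rarg, found by their symbols among the 27080 genes listed in the 3 deposited count tables, and each of the 9 was listed in every table. All libraries came from J1 cells, an mESC line grown on gelatin without feeder cells in serum medium with leukemia inhibitory factor (LIF). The knockdown comparison had 3 libraries from control cells that carried a control shRNA vector (shNT, labelled shCon), 3 from cells with the shRNA shGas41-1 and 2 from cells with the shRNA shGas41-2, all selected with puromycin and harvested 8 days after infection. Both shRNAs target Gas41 (gene symbol Yeats4), which encodes a YEATS domain protein of the Tip60/p400 and SRCAP chromatin complexes. The differentiation comparison used control vector cells without Gas41 knockdown, with 2 libraries of undifferentiated mESCs kept in LIF (EB day 0) and 2 of embryoid bodies formed without LIF in low attachment plates for 6 days (EB day 6). The shNT libraries served both knockdown comparisons, so their results share the same controls. Embryoid bodies with Gas41 knockdown were not analysed here, and the labels name no added retinoic acid.

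Retinoic acid is a vitamin A derivative that acts as a signal in the embryo. Retinol is oxidised to retinaldehyde, and the retinaldehyde dehydrogenases Aldh1a2 and Aldh1a3 carry out the irreversible step to retinoic acid, whereas the P450 enzymes Cyp26a1 and Cyp26b1 hydroxylate it for clearance. Crabp1 and Crabp2 are small cytosolic proteins that bind retinoic acid, and Crabp2 is known to hand it to the nuclear receptors. The receptors Rara, Rarb and Rarg pair with retinoid X receptors on DNA and switch target genes when the ligand is bound. In embryonic stem cells added retinoic acid is a widely used trigger of differentiation, and Cyp26a1 and Rarb are classical direct targets.

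The receptor pair binds DNA at a repeated hexamer, and a repeat with a spacer of 5 bases is called a DR5 element. RefSeq promoter windows of 300 bases, from 250 bases before to 50 bases after each annotated start (assembly GRCm38.p6), were searched for the hexamer AGGTCA, the variant AGTTCA, the variant GGGTCA or the variant GGTTCA, repeated in any combination, in the same direction with 5 bases between them, on both strands. Windows were found for 7 of the 9 genes, 11 windows in all, and Aldh1a3 and Crabp2 had none. A DR5 was found in 2 of the 7 genes, Cyp26a1 and Rarb, against 0.0974% of the 32851 promoter windows of all genes, or 31 of 27025 genes. As both genes are classical direct targets, this contrast does not test whether the set is enriched in the element. These sequences are printed because both genes are textbook retinoic acid targets whose levels moved differently in these libraries. The DR5 is in capitals, and in the Cyp26a1 window (chr19:37697558-37697857, plus strand) the element reads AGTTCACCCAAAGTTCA on the other strand, from 32 to 16 bases before the start. In the Rarb window (chr14:16575427-16575726, minus strand) it reads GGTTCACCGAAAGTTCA on the printed strand, from 53 to 37 bases before the start.
Cyp26a1 promoter: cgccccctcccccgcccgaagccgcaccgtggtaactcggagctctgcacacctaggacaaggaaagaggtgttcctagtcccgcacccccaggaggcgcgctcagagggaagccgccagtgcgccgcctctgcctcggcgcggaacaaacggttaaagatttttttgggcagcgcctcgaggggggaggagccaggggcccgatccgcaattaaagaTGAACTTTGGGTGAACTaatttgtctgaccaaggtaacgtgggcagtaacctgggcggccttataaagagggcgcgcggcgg
Rarb promoter: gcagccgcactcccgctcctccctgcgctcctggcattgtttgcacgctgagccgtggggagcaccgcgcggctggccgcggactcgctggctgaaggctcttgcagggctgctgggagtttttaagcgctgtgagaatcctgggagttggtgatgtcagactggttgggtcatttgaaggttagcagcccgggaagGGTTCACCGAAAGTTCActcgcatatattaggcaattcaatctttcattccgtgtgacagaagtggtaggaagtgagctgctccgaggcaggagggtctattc
With spacers of 1 base or 2 bases the same hexamers were found in 0.222% and 0.268% of all windows and in none of the 7 genes. At least 1 hexamer was present in 43.7% of all windows and in 4 of the 7 genes. A match is a run of letters, and binding was not measured here.

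Total counts per library were between 59224537 and 81524773, and 3 counts, taken as the detection floor, corresponded to 0.0368 to 0.0507 CPM, which are counts divided by the library total and multiplied by 1000000. Yeats4 was read at 52.1 to 63.2 CPM in shNT, at 3.50 to 4.79 CPM with shGas41-1 and at 7.68 to 8.68 CPM with shGas41-2, so its level in each library went with the label. ESC markers (Pou5f1, Sox2, Nanog, Zfp42, Esrrb, Klf4, Tfcp2l1 and Tbx3) summed to 5818 to 6292 CPM in shNT and 5876 to 6030 CPM at EB day 0. They summed to 4819 to 5287 CPM with shGas41-1, 5473 to 5682 CPM with shGas41-2 and 1257 to 1583 CPM at EB day 6. The library that lay farthest from its group mean was shGas41-1 replicate 3, with a root mean square deviation of 0.344 on the log2 scale over 18274 genes. The library shNT replicate 1 was close to it, at 0.321 and 0.324 in the shGas41-1 and shGas41-2 comparisons. The range over all libraries began at 0.195 with shGas41-2, a group of 2 libraries, which lie equally far from their mean by construction.

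**Figure D1:**
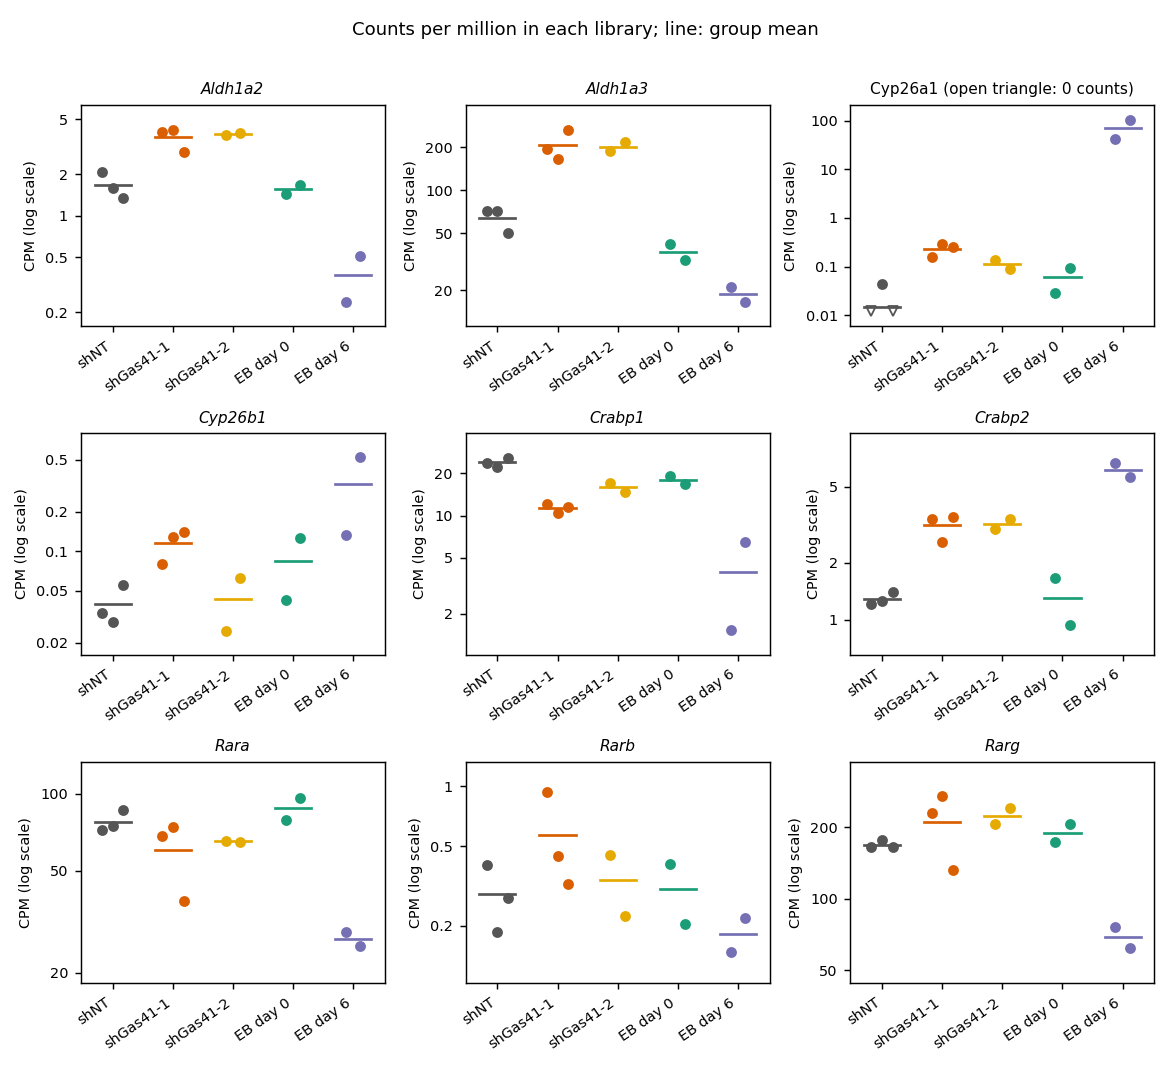
CPM (log scale) of each gene in each of the 12 RNA-seq libraries, grouped on the x axis, with 1 point per library, a line at the group mean and open triangles for libraries with 0 counts. Aldh1a3 lies at 166 to 264 CPM in the 5 knockdown libraries, above the 50.3 to 71.8 CPM of shNT, while Cyp26a1 stays at or below 0.294 CPM in every library except the 2 of EB day 6.

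Both retinaldehyde dehydrogenases rose in Gas41 knockdown cells with each shRNA. Aldh1a3 (mm9 chr7:73535778-73572403, minus strand) was the most abundant of the pair. Its level was 71.1, 71.8 and 50.3 CPM in the shNT libraries, 196, 166 and 264 CPM with shGas41-1 and 189 and 216 CPM with shGas41-2. The knockdown and control ranges did not overlap. Fitted over all genes with edgeR's quasi-likelihood test, where a gene was called at a log2 fold change of at least 1 in size and a Benjamini-Hochberg adjusted p (FDR) of at most 0.05, Aldh1a3 was higher by 1.79 on the log2 scale with shGas41-1 (SE 0.23, FDR 0.00304) and by 1.74 with shGas41-2 (SE 0.16, FDR 0.00145). Aldh1a2 (mm9 chr9:71063596-71144050, plus strand) is the main retinaldehyde dehydrogenase of the early embryo. It was read at 2.09, 1.59 and 1.35 CPM in shNT, 4.09, 4.23 and 2.90 CPM with shGas41-1 and 3.89 and 4.02 CPM with shGas41-2. Every knockdown library was above every shNT library. Its log2 fold change was 1.23 with shGas41-1 (SE 0.23, FDR 0.00924) and 1.32 with shGas41-2 (SE 0.22, FDR 0.0115).

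Embryoid body differentiation moved both enzymes the other way. Aldh1a2 was at 1.44 and 1.68 CPM at EB day 0 and fell to 0.237 and 0.509 CPM at EB day 6, a log2 fold change of -1.97 (SE 0.42, FDR 0.00703). Aldh1a3 was at 41.8 and 32.5 CPM at EB day 0 and at 21.1 and 16.6 CPM at EB day 6. Its groups did not overlap and its log2 fold change of -0.89 (SE 0.16, FDR 0.0035) passed the FDR but not the fold threshold, so it was not called. Per kilobase of exon, the scale on which genes can be set side by side, Aldh1a3 made up 90.5% to 97.8% of the summed level of the pair in every library. That sum was 14.7 ± 2.78 CPM per kilobase in shNT (SD, n = 3), 46.9 ± 10.5 with shGas41-1 (SD, n = 3), 45.6 ± 4.20 with shGas41-2 (SD, n = 2), 8.73 ± 1.36 at EB day 0 (SD, n = 2) and 4.25 ± 0.596 at EB day 6 (SD, n = 2).

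The clearing enzyme Cyp26a1 (mm9 chr19:37772298-37776018, plus strand) was the most responsive gene of the set in embryoid bodies and was barely detected elsewhere. The shNT libraries held 0, 3 and 0 counts, the shGas41-1 libraries 12, 23 and 16 counts and the shGas41-2 libraries 11 and 7 counts. All 5 knockdown libraries lay above the shNT libraries, at 0.0874 to 0.294 CPM. With 51 counts against 3 the ratio of shGas41-1 to shNT was 15.7 (95% counting interval 5.07 to 78.4), and with 18 counts against 3 the ratio of shGas41-2 to shNT was 7.46 (2.18 to 39.5). These intervals cover counting error only. The gene was called with shGas41-1 (log2 fold change 3.89, SE 0.82, FDR 0.0138), and in the shGas41-2 comparison it did not pass the filter on low counts and was not tested. In embryoid bodies it went from 2 and 6 counts at EB day 0 to 2861 and 7006 counts at EB day 6, or from 0.0280 and 0.0942 CPM to 42.3 and 101.9 CPM. The depth-scaled ratio of summed counts was 1222 (95% counting interval 620.0 to 2832), with a fitted log2 fold change of 10.29 (SE 0.72, FDR 6.9e-05). The knockdown libraries thus reached at most 0.294 CPM of a transcript that stood at 72.1 ± 42.1 CPM (SD, n = 2) in embryoid bodies.

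Cyp26b1 (mm9 chr6:84521938-84543740, minus strand), the related hydroxylase, stayed near the floor. It had 2, 2 and 4 counts in shNT, 6, 10 and 9 with shGas41-1, 2 and 5 with shGas41-2, 3 and 8 at EB day 0 and 9 and 36 at EB day 6. It passed the filter on low counts in none of the comparisons. The count ratio was 2.88 (95% counting interval 1.26 to 7.38) with shGas41-1, 1.09 (0.336 to 3.43) with shGas41-2 and 4.05 (2.06 to 8.69) at EB day 6, and with no filter its FDR was 0.176, 0.937 and 0.0906. A difference of Cyp26b1 was therefore not shown at this depth.

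The binding protein genes moved apart. Crabp2 (mm9 chr3:87752588-87757298, plus strand), which delivers retinoic acid to its receptors, was at 1.22, 1.25 and 1.39 CPM in shNT, 3.39, 2.58 and 3.49 CPM with shGas41-1 and 2.99 and 3.37 CPM with shGas41-2. It was at 1.65 and 0.942 CPM at EB day 0 and at 6.66 and 5.66 CPM at EB day 6. No library of a knockdown or of EB day 6 overlapped its controls, and Crabp2 was the only gene of the set called in the same direction in all 3 comparisons. Its log2 fold change was 1.37 with shGas41-1 (SE 0.21, FDR 0.00456), 1.38 with shGas41-2 (SE 0.19, FDR 0.00632) and 2.32 at EB day 6 (SE 0.29, FDR 0.000803). Crabp1 (mm9 chr9:54612555-54620917, plus strand), whose product binds retinoic acid and is linked to its breakdown, started much higher. It was at 23.7, 22.3 and 25.7 CPM in shNT, 12.1, 10.3 and 11.5 CPM with shGas41-1 and 17.1 and 14.8 CPM with shGas41-2. All knockdown libraries lay below shNT, but with a log2 fold change of -0.996 (SE 0.14, FDR 0.00321), just short of the fold threshold, Crabp1 was not called with shGas41-1, and with shGas41-2 the value was -0.50 (SE 0.12, FDR 0.0391). At EB day 6 Crabp1 fell from 19.3 and 16.7 CPM to 1.52 and 6.44 CPM (log2 fold change -2.08, SE 0.57, FDR 0.0187), and the 2 libraries of EB day 6 differed widely from each other.

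The makeup of the binding protein pool shifted accordingly. Per kilobase of exon, Crabp2 made up 3.02% to 3.30% of the Crabp1 and Crabp2 sum in shNT and 3.31% to 4.94% at EB day 0. The share was 13.1% to 15.5% with shGas41-1, 9.60% to 12.1% with shGas41-2 and 72.6% and 34.8% in the 2 libraries of EB day 6. The sum itself was 30.8 ± 2.18 CPM per kilobase in shNT (SD, n = 3), 16.5 ± 1.48 with shGas41-1 (SD, n = 3), 22.3 ± 1.80 with shGas41-2 (SD, n = 2) and 9.62 ± 3.8 at EB day 6 (SD, n = 2). The shares of the 5 knockdown libraries did not overlap those of the 5 control libraries. In an exact two-sided permutation test chosen after the data were seen, with both knockdowns together (13.0% ± 2.29, SD, n = 5) against shNT (3.17% ± 0.138, SD, n = 3), p was 0.0357, the smallest this design allows, and 0.0536 after Benjamini-Hochberg adjustment over 3 such shares, so the difference did not pass the correction.

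**Figure D2:**
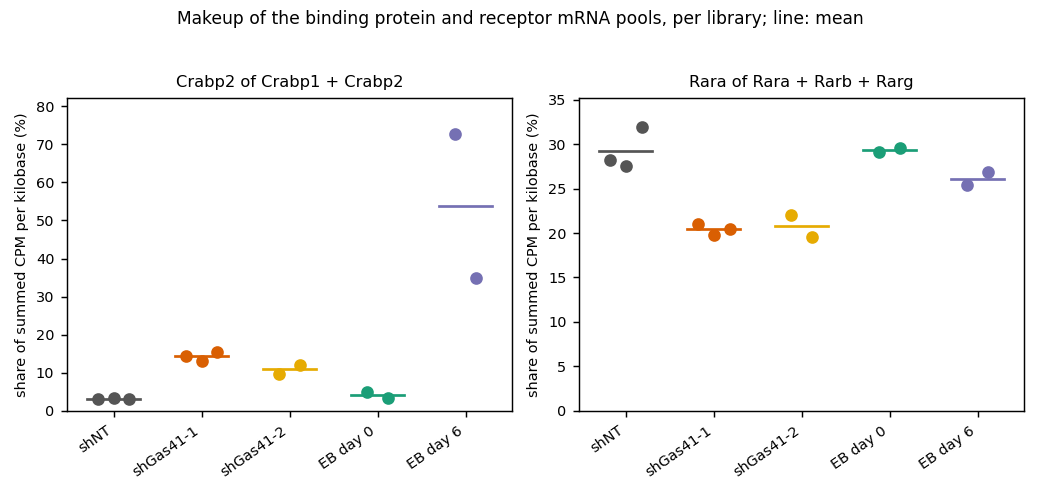
Share (%) of Crabp2 in the summed level of Crabp1 and Crabp2 (left) and of Rara in the summed level of Rara, Rarb and Rarg (right), from CPM per kilobase of exon, with 1 point per library and a line at the group mean. The 5 knockdown libraries lie at 9.60% to 15.5% for Crabp2 and at 19.6% to 22.1% for Rara, apart from the shNT libraries at 3.02% to 3.30% and 27.5% to 32.0%.

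The 3 receptor genes did not pass the call rule in either knockdown, and Rara and Rarg fell during differentiation. Rarg (mm9 chr15:102065369-102087948, minus strand) was the most abundant receptor, at 164, 176 and 165 CPM in shNT, 230, 270 and 132 CPM with shGas41-1 and 207 and 240 CPM with shGas41-2. The lowest of these came from shGas41-1 replicate 3, which lay below shNT while the other 4 knockdown libraries lay above it. Its log2 fold change was 0.39 with shGas41-1 (SE 0.21, FDR 0.226) and 0.49 with shGas41-2 (SE 0.10, FDR 0.0254), the latter under the fold threshold. Rara (mm9 chr11:98789132-98836256, plus strand) was at 72.0, 74.6 and 86.6 CPM in shNT, 68.2, 74.2 and 38.1 CPM with shGas41-1 and 65.4 and 65.0 CPM with shGas41-2. Again shGas41-1 replicate 3 was the lowest library. The log2 fold changes of Rara were -0.30 (SE 0.21, FDR 0.334) and -0.17 (SE 0.11, FDR 0.341).

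Both receptors were lower in each library of EB day 6. Rara went from 79.1 and 96.1 CPM to 28.8 and 25.4 CPM (log2 fold change -1.61, SE 0.12, FDR 9.2e-05) and Rarg from 172.8 and 205.8 CPM to 75.9 and 61.8 CPM (-1.38, SE 0.13, FDR 0.000222). Rarb (mm9 chr14:17263356-17651381, minus strand), the receptor gene that retinoic acid itself induces in many cells, was low in every library, at 0.148 to 0.931 CPM. It had 24, 13 and 20 counts in shNT, 70, 35 and 21 with shGas41-1, 37 and 18 with shGas41-2, 29 and 13 at EB day 0 and 10 and 15 at EB day 6. The groups overlapped in each comparison, with log2 fold changes of 1.05 (SE 0.45, FDR 0.137), 0.32 (SE 0.47, FDR 0.699) and -0.65 (SE 0.54, FDR 0.334). So of the 2 genes with a DR5 in the window, Cyp26a1 was called higher at EB day 6 and, at low counts, with shGas41-1. It was not tested with shGas41-2, and Rarb did not pass the test in any comparison.

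Within the receptor pool, the share of Rara was lower in every knockdown library than in any shNT library. Per kilobase of exon, Rara was 27.5% to 32.0% of the receptor sum in shNT and 29.1% to 29.5% at EB day 0. It was 19.8% to 21.0% with shGas41-1, 19.6% to 22.1% with shGas41-2 and 25.4% to 26.9% at EB day 6. Rarg held 67.9% to 72.4% in shNT, 78.6% to 80.1% with shGas41-1 and 77.7% to 80.3% with shGas41-2, and Rarb never exceeded 0.397%. Because the share is a ratio within a library, shGas41-1 replicate 3 lay with the other knockdown libraries here, although its receptor sum of 40.7 CPM per kilobase was below the 55.9 to 59.3 of shNT. In the same test as for the binding proteins the Rara share was 20.6% ± 0.996 in both knockdowns (SD, n = 5) and 29.2% ± 2.40 in shNT (SD, n = 3), with an exact permutation p of 0.0357 and an adjusted p of 0.0536, which did not pass the correction. The shares do not tell which receptor gene differed. The third share tested, that of Aldh1a3 among the dehydrogenases, was 96.2% ± 0.999 and 94.9% ± 0.688, with an exact permutation p of 0.0714 before and after adjustment.

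**Figure D3:**
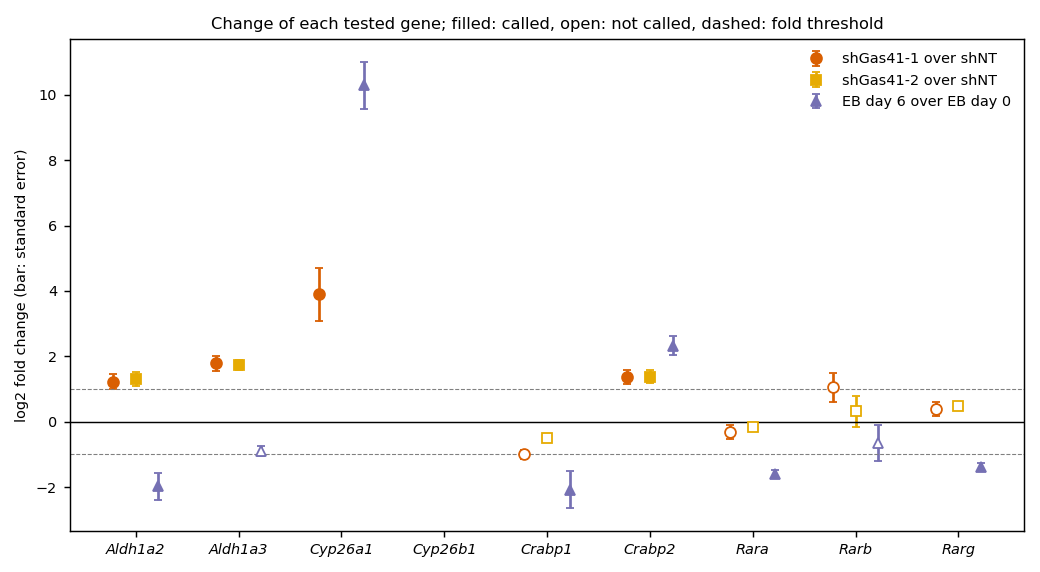
Fitted log2 fold change (y axis, bars are standard errors) of each tested gene in the 3 comparisons, with filled symbols for called genes, open symbols for genes not called and dashed lines at the fold threshold. Aldh1a2 is at 1.23 and 1.32 in the knockdowns and at -1.97 in embryoid bodies, and Cyp26b1 was not tested and has no point.

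Taking the set as a list, 4 of 8 tested genes were called higher with shGas41-1 (Aldh1a2, Aldh1a3, Crabp2 and Cyp26a1) and none lower, where 7.9% of all 18274 tested genes were called higher and 2.4% lower. With shGas41-2, 3 of 7 tested genes were called higher (Aldh1a2, Aldh1a3 and Crabp2) and none lower, where 3.96% of 18405 genes were called higher and 0.869% lower. At EB day 6, 2 of 8 tested genes were called higher (Crabp2 and Cyp26a1) and 4 lower (Aldh1a2, Crabp1, Rara and Rarg), where 16.6% of 18287 genes were called higher and 14.7% lower. The median log2 fold change of the tested genes of the set was 1.14, 0.49 and -1.13 in these comparisons, against 0.02, -0.01 and -0.003 over all genes tested. Cyp26a1 was tested with shGas41-1 and at EB day 6 only, where it passed the filter through its higher group.

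Some of these calls were lost when 1 library was left out, which also leaves fewer libraries to the test, and the fold change stayed near its value where none is given. The Cyp26a1 call with shGas41-1 was lost without shNT replicate 3 (log2 fold change 3.30, FDR 0.0506), and its log2 fold change went from 3.89 to 7.08 (SE 1.19) without shNT replicate 2, the only shNT library with counts of it, where the fitted value depends on the prior count. With shGas41-2 the Aldh1a2 call was lost without shNT replicate 2 (FDR 0.0519), without shGas41-2 replicate 1 (0.0641) or without shGas41-2 replicate 2 (0.0867), and the Crabp2 call was lost without shGas41-2 replicate 2 (0.0699). At EB day 6 the Crabp1 call was lost without EB day 0 replicate 2 (FDR 0.107) or replicate 3 (0.174) and the Aldh1a2 call without EB day 0 replicate 3 (0.103). The log2 fold changes at EB day 6 ran from -1.38 (without EB day 6 replicate 2) to -3.48 (without EB day 6 replicate 3) for Crabp1, from -1.51 to -2.63 for Aldh1a2 and from 10.80 to 9.51 for Cyp26a1 in the same order.

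The shRNAs were also set against each other, which asks whether the cells with the stronger loss of Yeats4 differed in these genes. No gene of the set was called in that direct contrast, in which 0% of 19146 genes were called (1348 had an unadjusted p under 0.05, and DESeq2 called 39 higher and 32 lower). The log2 difference of shGas41-1 minus shGas41-2 was 0.06 for Aldh1a3 (SE 0.24, FDR 0.984), -0.08 for Aldh1a2 (SE 0.22, FDR 0.971) and -0.01 for Crabp2 (SE 0.21, FDR 0.996). Crabp1 was lower with shGas41-1 in every library, at a log2 difference of -0.49 (SE 0.14, unadjusted p = 0.0055 by edgeR), but with an FDR of 0.433. For Cyp26a1 the difference was 1.07 (SE 0.65, FDR 0.833).

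The control cultures were compared as well, since EB day 0 and shNT are both undifferentiated J1 cells with a control vector. No gene of the set was called, where 0.178% of 19613 genes were. The libraries did not overlap for Aldh1a3 and for Crabp1. The share of all genes that separate in this way was not counted. With 2 libraries against 3, the smallest two-sided p of an exact permutation test is 0.2, so separation alone does not show a difference. Aldh1a3 was at 37.1 ± 6.60 CPM at EB day 0 (SD, n = 2) and 64.4 ± 12.3 CPM in shNT (SD, n = 3), a log2 difference of -0.81 (SE 0.23, FDR 0.117), and Crabp1 at 17.99 ± 1.83 CPM and 23.9 ± 1.70 CPM, a log2 difference of -0.43 (SE 0.38, FDR 0.569). The culture set and the deposited table cannot be told apart in this contrast.

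To ask whether knockdown and differentiation changed a gene differently, the difference of the 2 changes was tested in 1 fit over all 12 libraries, a comparison chosen after the data were seen. Aldh1a2 differed by 3.16 on the log2 scale between shGas41-1 and EB day 6 (SE 0.42, FDR 9.7e-05) and by 3.26 between shGas41-2 and EB day 6 (SE 0.44, FDR 0.000107). Aldh1a3 differed by 2.64 (SE 0.32, FDR 5.3e-05) and 2.60 (SE 0.34, FDR 8.3e-05). The receptors differed less, with Rarg at 1.72 (FDR 0.000664) and 1.84 (FDR 0.000627) and Rara at 1.27 (FDR 0.00418) and 1.41 (FDR 0.00309). Cyp26a1 went the other way, at -6.44 (SE 2.37, FDR 0.0427) and -7.49 (SE 2.50, FDR 0.0305), both from groups near the floor. Crabp2 differed by -0.996 (FDR 0.033) and -0.97 (FDR 0.0477), under the fold threshold in each case, and Crabp1 passed only in the shGas41-2 contrast (1.55, FDR 0.0437, against 1.04, FDR 0.136, with shGas41-1). With shGas41-1 and shGas41-2, 5 and 6 genes of the set were called, where 33.3% and 31.7% of 19613 genes were called in these contrasts.

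Per kilobase of exon the order of levels in shNT ran from Rarg (41.1 ± 1.63 CPM per kilobase, SD, n = 3) through Crabp1 (29.8 ± 2.12), Rara (17 ± 1.70) and Aldh1a3 (14.0 ± 2.66) to Crabp2 (0.975 ± 0.0712), Aldh1a2 (0.741 ± 0.167), Rarb (0.088 ± 0.0333), Cyp26b1 (0.00854 ± 0.00305) and Cyp26a1 (0.00813 ± 0.0141). The ranges of Crabp2 and Aldh1a2 overlapped, as did those of Cyp26b1 and Cyp26a1. In both knockdowns Aldh1a3 moved from the fourth to the second place, at 45.2 ± 10.9 with shGas41-1 (SD, n = 3) and 43.9 ± 4.16 with shGas41-2 (SD, n = 2). With shGas41-1 its range of 36.1 to 57.2 overlapped that of Rarg (32.2 to 65.6), and with shGas41-2 Rarg lay above it (50.4 to 58.3 against 41.0 to 46.8). At EB day 6 Cyp26a1 moved from the eighth place at EB day 0 to the first, at 40.7 ± 23.8 (SD, n = 2). By merged exons its lower library (23.9) exceeded both libraries of Rarg (15.0 and 18.5). By the longest transcript Rarg stood at 25.7 and 20.9 CPM per kilobase, which overlapped the 23.9 and 57.5 of Cyp26a1.

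The wider retinoid pathway was then counted in 5 lists, and the counts were not tested against the shares of all genes. Over all genes the shares called higher and lower were 7.9% and 2.4% with shGas41-1 and 3.96% and 0.869% with shGas41-2. At EB day 6 they were 16.6% and 14.7%. Of genes that take up, store or cleave retinoids, 7 were tested with shGas41-1 and 6 with shGas41-2 and none was called. In embryoid bodies 3 of 6 rose, among them the retinol uptake receptor gene Stra6 (log2 fold change 2.50, FDR 0.0166) and the carotenoid cleaving enzyme gene Bco2 (1.98, FDR 0.0099). The list medians were 0.22, 0.22 and 1.03. Of 11 tested dehydrogenases and reductases, the same 2 were called higher with each shRNA. Aldh1a7, an aldehyde dehydrogenase so close to Aldh1a1 in sequence that reads could be split between them, had 3 counts over the shNT libraries, 61 with shGas41-1 (ratio 18.7, 95% counting interval 6.11 to 93.3) and 35 with shGas41-2 (14.5, 4.57 to 73.7). Adh7, an alcohol dehydrogenase able to oxidise retinol, had 5, 116 and 61 counts (ratios 21.4, 8.90 to 67.1, and 15.2, 6.16 to 48.4). Both genes passed the filter on low counts only through the knockdown libraries, where they were high. They were not tested at EB day 6, where 3 genes of 9 tested in this list rose, and the list medians were 0.29, 0.14 and 0.08.

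Cyp1b1, a P450 enzyme that can also act on retinoids, was called higher in all 3 comparisons, at 2.33 with shGas41-1 (SE 0.30, FDR 0.00299), 1.76 with shGas41-2 (SE 0.33, FDR 0.0198) and 2.00 at EB day 6 (SE 0.24, FDR 0.000628). Among 16 receptor partners and cofactors, 1 was called higher with shGas41-1 and none with shGas41-2, and at EB day 6 there were 5 called higher and 2 lower. The 1 called higher with shGas41-1 and the 2 called lower at EB day 6 were near the shares over all genes, 7.9% and 14.7%. The retinoid X receptor gene Rxrg rose from 0.662 to 24.97 CPM at EB day 6 (5.31, SE 0.18, FDR 6.3e-06) and with shGas41-1 from 1.27 to 2.77 CPM (1.19, SE 0.28, FDR 0.0219), and its value with shGas41-2 was 0.63 (FDR 0.095). The fatty acid and retinoic acid carrier gene Fabp5 (2.05) and the corepressor gene Nrip1 (1.63) rose at EB day 6 and the coactivator gene Ncoa3 fell (-1.55). The list medians were -0.21, -0.23 and 0.15.

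Genes known to respond to retinoic acid in other systems were called higher in 7 of 24 tested and lower in 2 with shGas41-1, and higher in 2 of 23 and lower in none with shGas41-2. In embryoid bodies they were called higher in 16 of 27 and lower in 4. Over all genes the shares called higher and lower were 7.9% and 2.4%, 3.96% and 0.869%, and 16.6% and 14.7% in the same order, so the share called lower in embryoid bodies was near that of all genes. The list medians were 0.20, 0.24 and 1.81. The list does not give the direction in which retinoic acid moves each gene, so these counts do not show a response to it. It includes Fgf8 and Lefty1, whose mean levels were higher at EB day 6, and Gbx2 and Nr0b1, whose mean levels were lower. The 2 called with both shRNAs were the homeobox genes Meis1 (0.816 CPM in shNT, 3.11 and 2.15 CPM in the knockdowns, log2 fold changes 2.00 and 1.48) and Meis2 (3.13 CPM in shNT, 10.9 and 9.22 CPM, 1.87 and 1.64). Meis2 also rose at EB day 6 (2.78, FDR 4.7e-05), whereas the value of Meis1 there was 0.16 (FDR 0.716). Some genes, such as Stra6, Dhrs3 and Nrip1, stand in this list and in another.

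**Figure D4:**
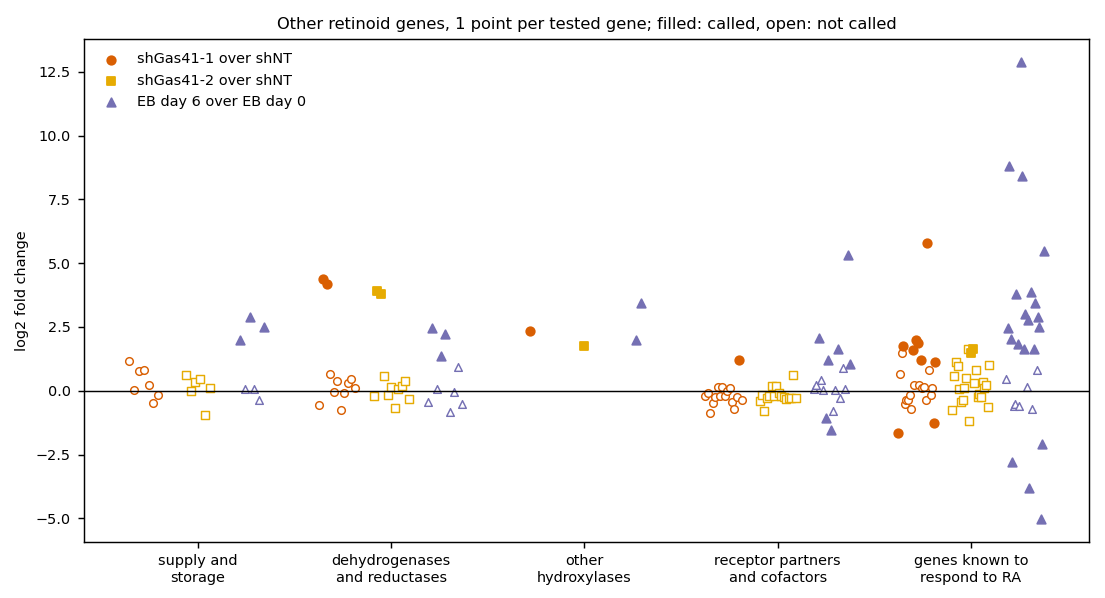
Log2 fold change (y axis) of every tested gene in 5 lists of other retinoid genes, with 1 symbol per gene and comparison, filled where called. With the knockdowns the supply list has no called gene, and at EB day 6 the list of genes known to respond to retinoic acid has 16 called higher and 4 called lower.

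The cell makeup of embryoid bodies moved with these results. From EB day 0 to EB day 6, 7 of 8 ESC markers were called lower, where 16.6% of all tested genes were called higher and 14.7% lower. All 8 of 8 primitive streak and mesoderm markers were called higher (summed level 12.2 to 12.5 CPM, then 1319 to 1934 CPM). Extraembryonic endoderm markers summed to 7.58 to 8.32 CPM at EB day 0 and 68.9 to 158 CPM at EB day 6. Of 6 tested, 5 were called higher and 1 lower, and Sox7 fell from 2.10 to 2.49 CPM to 0.189 to 0.252 CPM. Trophectoderm markers summed to 49.4 to 67.0 CPM and then 652 to 827 CPM, and 6 of 7 tested were called higher. Eomes, which stands in both the streak and the trophectoderm list, made up most of the latter sum. It was at 5.88 to 6.81 CPM at EB day 0 and 503 to 593 CPM at EB day 6. The part of these markers in the changes of the retinoid genes was not tested. In these bulk libraries fewer cells of a type and less RNA per cell cannot be told apart. With shGas41-1, 3 of 8 ESC markers were called lower (Klf4, Esrrb and Tfcp2l1), and with shGas41-2 none was. Over all genes 7.9% were called higher and 2.4% lower with shGas41-1, and 3.96% higher and 0.869% lower with shGas41-2. The small marker counts were not tested against those shares. Extraembryonic endoderm markers summed to 6.47 to 10.5 CPM with shGas41-1 and 8.40 to 9.78 CPM with shGas41-2, all above the 5.21 to 6.13 CPM of shNT. Of 7 tested 1 was called higher with each shRNA, a different gene each time (Gata6 with shGas41-1 and Sox7 with shGas41-2). Of the trophectoderm markers, 2 of 7 were called higher (Cdx2 and Gata3) and 1 lower (Eomes) with shGas41-1 and 1 of 8 higher (Gata3) with shGas41-2, while their sums were 37.5 to 51.7 CPM and 45.8 to 52.5 CPM against 59.6 to 80.1 CPM in shNT. Of the neural markers, 2 of 5 were called higher with shGas41-1, Pax6 among them, and none of 4 with shGas41-2, with sums of 267 to 339 CPM and 351 to 358 CPM against 310 to 317 CPM in shNT. Most of these sums was Tubb3, with means of 262 and 325 CPM in the knockdowns and 280 CPM in shNT. Tubb3 was also high at EB day 0 (251 CPM) and low at EB day 6 (19.0 CPM). The primitive streak and mesoderm markers summed to 8.96 to 22.8 CPM with shGas41-1 and 16.5 to 20.6 CPM with shGas41-2, against 13.5 to 16.3 CPM in shNT. Of 8 tested, 1 was called higher and 2 lower with shGas41-1, and 1 higher and none lower with shGas41-2. With each shRNA 5 of the 8 had a log2 fold change above 0. Evx1 was at 0.732 to 1.46 CPM in shNT, 3.03 to 12.0 CPM with shGas41-1 and 3.85 to 9.95 CPM with shGas41-2. Eomes and Tbx6 went the other way. Their means in shNT, shGas41-1 and shGas41-2 were 9.05, 4.31 and 5.41 CPM for Eomes and 0.406, 0.144 and 0.148 CPM for Tbx6. Fibroblast markers summed to 13.9 CPM or less in every library, and in shNT Thy1 made up most of the mean sum (9.92 of 10.8 CPM). The part of these markers in the knockdown results was not tested either.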

How the data were processed

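RNA of J1 cells was sequenced from TruSeq libraries. The authors mapped reads to mm9 with TopHat2 2.0.10 and deposited HTSeq read counts per gene in 3 tables, 1 per comparison; the HTSeq strand setting is not given in the sources used here. Their columns of fold changes, p-values and FDR were not used, and 15 ChIP-seq samples were not analysed here. The deposited counts were tested in edgeR 4.0.16 (R 4.3.3) with filterByExpr (minimum count 10, minimum total 15), scaling by TMM and the quasi-likelihood test. FDR values were adjusted by Benjamini-Hochberg over every gene tested in the table. Only the edgeR test of the 3 comparisons was also tried on simulated counts. A gene was called at a log2 fold change of at least 1 in size and an FDR of at most 0.05. SE is the log2 fold change divided by the square root of the F statistic. Alternatives were RLE scaling, library size alone, no filter, DESeq2 1.42.0, the edgeR exact test, all libraries in 1 fit, halved counts, FDR alone, the replicate block and leaving out each library.

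CPM are counts over the library total. Levels per kilobase used merged exons of the mm9 annotation, in which none of the 9 genes shares exon bases with another gene. Promoter sequences are from RefSeq. All 9 genes are described. From each pathway list, genes called with both shRNAs were named, and otherwise the 4 with the largest change among those called in any comparison. Some items are not reported here. The genes and lists were chosen with earlier results of these data known. The study's methods state biological repeats for its experiments in general, while the labels do not say whether these libraries came from separate cultures, and p-values measure the spread between these libraries, which may be partly technical.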

Additional observations from a re-analysis of the deposited data

How the results depend on the processing

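Of the counts of called genes under the planned and added alternatives, 74 were within 1.5 times the reported count and 2 were not. With shGas41-2 the count of 3 called genes became 5 on the FDR alone, as Crabp1 and Rarg passed, and 1 without shGas41-2 replicate 2. Leaving out 1 library at a time gave 3 to 5 called genes with shGas41-1, 1 to 3 with shGas41-2 and 5 to 8 at EB day 6, where 8 was reached without EB day 6 replicate 2 as Aldh1a3 and Cyp26b1 passed. Where 1 library was left in a group, it was assumed to vary like the other group. The difference between knockdown and embryoid body changes was called for 4 to 7 genes with shGas41-1 and 4 to 6 with shGas41-2. Crabp1 with shGas41-1 passed the fold threshold under 9 alternatives, at -1.01 (RLE, no filter and DESeq2) to -1.08 (library size alone). Cyp26a1 with shGas41-1 did not pass the filter when counts were halved. By DESeq2 the adjusted p of Crabp1 at EB day 6 was 0.0501. The log2 fold change of Rarb with shGas41-2, which was not called, was 0.32 and lay between -0.26 (without shGas41-2 replicate 1) and 0.72 (without shGas41-2 replicate 2). The cause of these changes was not tested. The differences in the Crabp2 and Rara shares kept their direction with the longest transcript, with EB day 0 among the controls (exact permutation p = 0.00794 for each) and without any 1 library, where the smallest p the design allows is 0.0571 or 0.0952.

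Replicate numbers did not show that libraries were paired. Same-numbered libraries correlated at 0.00503, 0.145 and -0.387 between shGas41-1 and shNT, at 0.336 and 0.239 between shGas41-2 and shNT and at 0.0549 between EB day 6 and EB day 0. With the replicate block 4, 3 and 6 genes of the set were called, as without it, while over all genes those called higher with shGas41-2 went from 728 to 1122. Depth limits Cyp26a1 and Cyp26b1, which were at or under 3 counts in some control libraries, and less so Rarb, with 10 to 70 counts per library.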

Other observations

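The genes whose pattern over the 5 group means came closest to that of a called retinoid gene were named by the Euclidean distance of centred log2(CPM + 1) values among 16962 genes, as a description over 5 means. Closest to Aldh1a3 was Dnajb14, a co-chaperone gene (distance 0.0934), at 282 CPM in shNT, 873 and 865 CPM with shGas41-1 and shGas41-2, 163 CPM at EB day 0 and 89.8 CPM at EB day 6, and next was the muscle acetylcholine receptor gene Chrna1 (0.141). Closest to Aldh1a2 were Sparc, which encodes a matrix glycoprotein (0.111), and Qpct (0.134). Sparc stood at 171 CPM in shNT, 315 and 349 CPM in the knockdowns, 167 CPM at EB day 0 and 86.9 CPM at EB day 6. Closest to Crabp2 were Lhfp (0.094) and Dab1 (0.237), and closest to Cyp26a1 were the semaphorin gene Sema6a (0.17) and Wnt3 (0.227), which stood at up to 0.526 and 0.342 CPM in the groups other than EB day 6, where they reached 82.8 and 72.2 CPM. These levels are geometric means of CPM + 1, less 1. By Pearson correlation in place of the distance, 1 of the 2 closest genes was shared for Aldh1a2, Aldh1a3 and Crabp2 and 0 for Cyp26a1.

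Of the 31 genes with a DR5 in a promoter window, 7 were tested with shGas41-1, of which 2 were called higher and 1 lower, 6 with shGas41-2, of which 1 was called higher, and 5 at EB day 6, of which 2 were called higher and 1 lower. Cyp26a1, described above, was 1 of the 2 called higher with shGas41-1 and at EB day 6, where it passed the filter through its higher group. Most of the 31 genes were not tested in any comparison. Over all tested genes 7.9% were called higher and 2.4% lower with shGas41-1, 3.96% higher with shGas41-2, and 16.6% higher and 14.7% lower at EB day 6, and counts this small were not tested against those shares.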
